A study of Mus musculus with 17 samples.

Results

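The 10 genes of messenger RNA deadenylation followed here through single mouse 2-cell embryos were the adaptor genes Tob1, Tob2, Btg1, Btg2, Btg3 and Btg4, the deadenylase genes Cnot6l, Cnot7 and Cnot8, and Zfp36l2, which encodes a protein that brings a deadenylase to its targets. A row (probe set) belonged to the group if the platform annotation gave it 1 of these 10 symbols, and 12 of the 28815 rows did. Of these, 10 rows carried exactly 1 symbol and covered 9 genes, among 21780 such rows on the array. The other 2 rows were annotated jointly to Gm7334 and Btg3, so no value below is that of Btg3 alone. The genes were chosen by their function together with measured values, the differences of Tob1, Tob2 and Btg4 between PJ34 and control embryos, so that contrast is described here and not tested.

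The study asked how PJ34, an inhibitor of poly(ADP-ribose) polymerases, given to males before mating affects gene expression in their embryos. Wild-type males of strain 129SVE (129S6/SvEvTac) received PJ34 or saline every day for 6 weeks and then mated naturally with wild-type females that had received nothing. The labels call the control sires saline treated in one field and untreated in another. RNA of each embryo was amplified and measured on its own array, giving 7 control embryos (1 of sire A, 3 of sire B and 3 of sire D) and 10 PJ34 embryos (4 of sire MTM11, 4 of sire MTM13 and 2 of sire MTM14). Embryos of one sire share that sire, so each group rests on 3 males, and the number of females mated is not given in the sources used here.

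Deadenylation, the shortening of the poly(A) tail, is the usual first step in the decay of a messenger RNA. In the CCR4-NOT complex it is carried out by an exonuclease of the CAF1 type (Cnot7 or Cnot8) and one of the CCR4 type (Cnot6 or Cnot6l). Proteins of the BTG/TOB family bind the CAF1 subunit, and Tob1 and Tob2 also bind the poly(A)-binding protein, which places the complex at the tail. In the mouse oocyte and early embryo, Btg4, Cnot6l and Zfp36l2 are known for their part in clearing RNA that the oocyte had stored.

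The start regions of 4 adaptor genes are printed first, because these are the genes whose means were highest in PJ34 embryos relative to controls. Each line gives the 250 bases before the annotated start, 5′ to 3′ on the gene's own strand, taken from RefSeq on GRCm38.p6, and 8 of the 10 genes had such an entry. Capitals mark matches, on either strand, to the letters TATAAA of the TATA box, the letters CCAAT of the box so named, the letters GGGCGG of the GC box, and the letters TGACGTCA of the cyclic AMP response element (CRE). The regions are chr11:94211204-94211453 on the plus strand for Tob1, chr15:81858327-81858576 on the minus strand for Tob2, chr9:51115751-51116000 on the plus strand for Btg4 and chr1:134079156-134079405 on the minus strand for Btg2.
Tob1: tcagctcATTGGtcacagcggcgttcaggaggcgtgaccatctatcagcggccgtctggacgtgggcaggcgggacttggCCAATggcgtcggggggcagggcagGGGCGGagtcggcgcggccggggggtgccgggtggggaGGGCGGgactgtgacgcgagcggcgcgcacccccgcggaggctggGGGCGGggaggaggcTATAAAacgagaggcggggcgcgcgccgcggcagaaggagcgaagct
Tob2: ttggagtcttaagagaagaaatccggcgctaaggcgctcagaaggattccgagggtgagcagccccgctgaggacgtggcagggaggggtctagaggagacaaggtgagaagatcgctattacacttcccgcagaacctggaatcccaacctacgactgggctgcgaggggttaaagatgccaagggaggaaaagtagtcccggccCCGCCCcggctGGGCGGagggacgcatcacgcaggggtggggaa
Btg4: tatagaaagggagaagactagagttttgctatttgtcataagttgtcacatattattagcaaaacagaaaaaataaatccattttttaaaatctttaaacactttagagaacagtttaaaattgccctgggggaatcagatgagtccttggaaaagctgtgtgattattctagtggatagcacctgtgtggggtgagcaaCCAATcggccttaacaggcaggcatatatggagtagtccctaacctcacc
Btg2: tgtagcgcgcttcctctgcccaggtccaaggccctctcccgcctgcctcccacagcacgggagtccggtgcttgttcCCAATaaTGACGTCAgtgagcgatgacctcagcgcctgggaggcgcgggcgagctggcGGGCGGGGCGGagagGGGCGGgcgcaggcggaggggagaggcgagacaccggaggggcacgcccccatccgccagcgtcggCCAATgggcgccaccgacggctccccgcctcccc

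The Tob1 and Tob2 regions had little in common beyond GC boxes. Tob1 held 1 TATA box beginning 47 bases before the start, 2 CCAAT boxes and 3 GC boxes in sequence of 73.6% G and C. Tob2 held 2 GC boxes, 44 and 33 bases before the start, and neither a TATA nor a CCAAT match, at 60.4% G and C. Btg4, the adaptor made in oocytes, had 38.0% G and C, below the median of 52.4% over all 32851 regions of this length, and 1 CCAAT box at 50 bases. Btg2 was the one gene with a CRE match, 166 bases before the start, beside 2 CCAAT and 3 GC boxes. A TATA box match occurred in 12.4% of all regions, a CCAAT match in 33.8%, a GC box match in 32.7% and a CRE match in 1.55%. A match describes these letters only and says nothing of binding in the embryo.

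Tob1 had the widest separation of the group means. Its log2 level in control embryos ran from 7.24 (D-3) over a median of 8.38 to 8.53 (D-2), and in PJ34 embryos from 8.49 (MTM13-4) over a median of 9.08 to 10.11 (MTM14-1). The groups met only at this edge: 9 of 10 PJ34 embryos lay above the highest control, and MTM13-4 lay below 2 controls of sire D. The means were 8.16 ± 0.47 (SD, n = 7) in controls and 9.16 ± 0.56 (SD, n = 10) in PJ34 embryos, a log2 difference of 1.01 ± 0.25 (SE), or 2.01-fold. An array of a whole embryo reads both blastomeres together, so that a change in one of them and a smaller change in each cannot be told apart.

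Tob2, the close relative of Tob1 with the same binding partners, was higher by less but was far steadier. Controls ran from 7.84 (B-1) over a median of 8.30 to 8.38 (D-2), and PJ34 embryos from 8.37 (MTM13-3) over 8.68 to 8.87 (MTM11-3). One PJ34 embryo, MTM13-3, fell just under the control D-2, and the other 9 lay above every control. The means were 8.22 ± 0.19 (SD, n = 7) and 8.65 ± 0.16 (SD, n = 10), a log2 difference of 0.43 ± 0.09 (SE), or 1.35-fold.

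The embryos that overlapped with the controls were not the same for both genes. All 10 PJ34 embryos were above the highest control for Tob1 or for Tob2, and 8 were above it for both. MTM13-4 was inside the control range for Tob1 with 8.74 for Tob2, and MTM13-3 was inside it for Tob2 with 8.57 for Tob1. Both embryos came from sire MTM13.

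**Figure D1:**
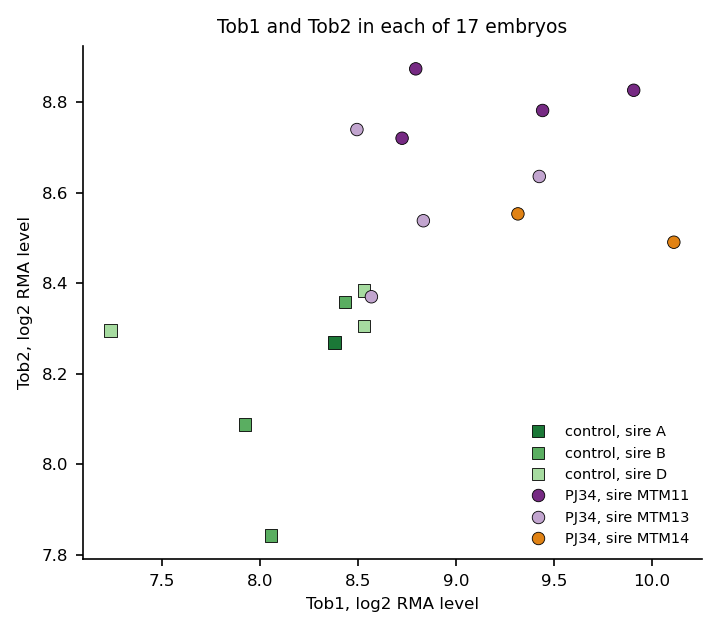
Log2 RMA level of Tob1 (x axis) against Tob2 (y axis) in each of 17 embryos, squares for control and circles for PJ34, coloured by sire. The control embryos fill the lower left and 8 of 10 PJ34 embryos lie above every control on both axes, while within a group the 2 genes do not line up.

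Btg4, an adaptor found mainly in oocytes and early embryos, was high in every embryo. Controls ran from 11.28 (B-2) over a median of 11.64 to 11.92 (B-3), and PJ34 embryos from 11.63 (MTM11-3) over 11.88 to 12.25 (MTM11-1). Here the groups overlapped widely, with 4 PJ34 embryos above the highest control. The means were 11.62 ± 0.22 (SD, n = 7) and 11.89 ± 0.18 (SD, n = 10), a log2 difference of 0.27 ± 0.09 (SE), or 1.21-fold. The highest control was exceeded by 3 PJ34 embryos for Tob1, Tob2 and Btg4 together.

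Btg1 and Btg2, adaptors known as inhibitors of cell proliferation, varied more from embryo to embryo than between the groups. Btg1 ran from 6.78 over 8.23 to 8.35 in controls and from 6.90 over 7.78 to 8.59 in PJ34 embryos. Both groups held embryos near the top and near the bottom of this range, and the difference of means was -0.09 ± 0.28 (SE), with its sign turning under 3 of 26 alternatives. Btg2, a target of p53, ran from 5.79 over 6.17 to 7.03 in controls and from 5.71 over 6.99 to 7.47 in PJ34 embryos. Its lowest value of all 17 embryos was in MTM11-3, and 4 other PJ34 embryos exceeded the highest control. The difference of means was 0.45 ± 0.25 (SE), close in size to that of Tob2 but with the SE of Tob1.

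**Figure D2:**
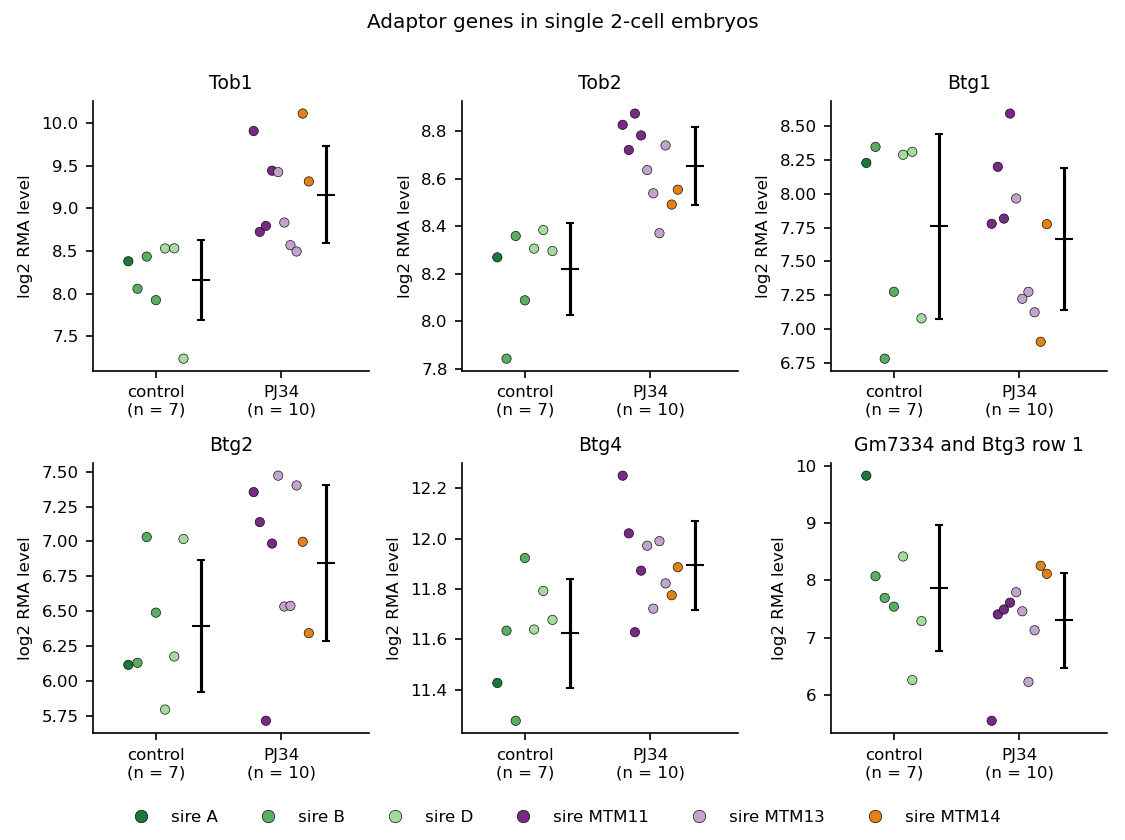
Log2 RMA level of the adaptor genes in each embryo, by group and coloured by sire, with the group mean and SD as a bar at the right of each group; each panel has its own y axis. For Tob1 and Tob2 all but 1 PJ34 embryo lie above the highest control, and for the other adaptors the groups overlap.

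The 2 rows annotated to Gm7334 and Btg3 spanned the widest range of all, 19.4-fold and 21.5-fold between the lowest and the highest embryo. They rose and fell together, never more than 0.20 apart in an embryo on the log2 scale, and so amount to a single measurement. The first row was lowest in MTM11-1 (5.55), highest in the control A-2 (9.82) and had means of 7.87 ± 1.10 (SD, n = 7) in controls and 7.30 ± 0.83 (SD, n = 10) in PJ34 embryos. The difference of -0.57 ± 0.44 (SE) became -0.24 without the control A-2 and -0.98 without the 3 embryos of sire D. Gm7334 is a predicted gene, and how much of the signal came from Btg3 was not tested.

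The catalytic subunits, apart from a second Cnot8 row, were bright in all embryos, and Cnot7 and the brighter Cnot8 row varied little between them. Cnot7 ran from 11.31 over 11.43 to 11.52 in controls and from 11.27 over 11.46 to 11.75 in PJ34 embryos, with a difference of 0.08 ± 0.06 (SE). Cnot6l ran from 11.06 over 11.15 to 11.77 in controls and from 10.62 over 11.22 to 11.48 in PJ34 embryos, with a difference of -0.07 ± 0.12 (SE). For both genes the PJ34 embryos lay on either side of the control median, and Cnot6l spanned a 2.22-fold range over the 17 embryos. Cnot8, the paralogue of Cnot7, had 2 rows. The brighter one was 12.14 ± 0.10 (SD, n = 7) in controls and 12.13 ± 0.09 (SD, n = 10) in PJ34 embryos, with a difference of -0.01 ± 0.05 (SE) whose sign turned under 7 of 26 alternatives, centring of the arrays included.

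The dimmer Cnot8 row ran from 8.17 over 8.64 to 9.004 in controls and from 7.46 (MTM14-2) over 8.27 to 8.79 in PJ34 embryos, with a difference of -0.35 ± 0.18 (SE). It did not follow the brighter row between embryos (r = -0.12, permutation p = 0.662, rho = -0.27, permutation p = 0.300, n = 17, values centred on the group mean), and r was -0.31 without the 2 embryos farthest from the median of the brighter row. The platform annotation ties the dimmer row to Cnot8 through a single cDNA record, and which transcript it reads was not tested.

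Zfp36l2, which binds AU-rich elements in messenger RNA, was at 6.79 ± 0.16 (SD, n = 7) in controls and 6.84 ± 0.12 (SD, n = 10) in PJ34 embryos. Its range was 6.52 to 6.99 in controls and 6.63 to 7.03 in PJ34 embryos, so the groups lay on top of each other. The difference of 0.06 ± 0.07 (SE) became 0.01 without the control A-2, the only embryo of sire A, and -0.01 without the 4 embryos of sire MTM11.

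**Figure D3:**
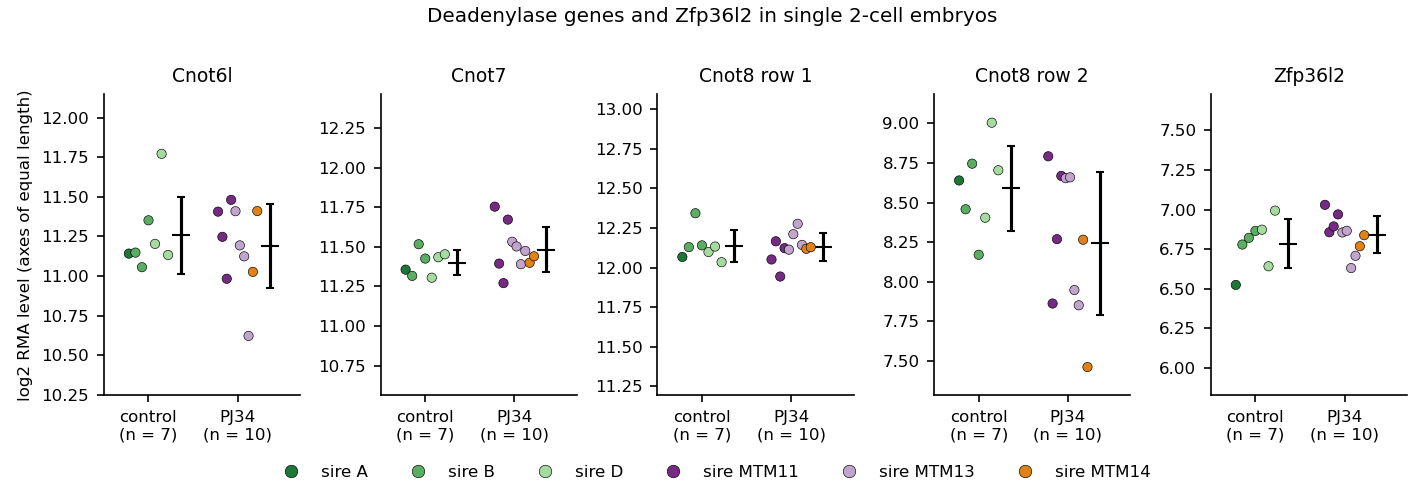
Log2 RMA level of the deadenylase genes and Zfp36l2 in each embryo, by group and coloured by sire, with the group mean and SD; the y axes span the same length in log2 units. Control and PJ34 embryos overlap in every panel. Above the highest control lie 3 PJ34 embryos for Cnot7 and 1 for Zfp36l2. Below the lowest control lie 4 for the dimmer Cnot8 row, 3 for Cnot6l, and 1 each for Cnot7 and the brighter Cnot8 row.

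Read against all rows, the counts were as follows. All 10 PJ34 embryos were above the control mean for Tob1, Tob2 and Btg4, 3 of the 10 member rows with 1 symbol, and for 0.817% of all 21780 rows. Tob1 and Tob2 were above control in 68 and 69 of the 70 possible pairs of embryos, which 5 rows in all, or 0.023%, reached. Groups that did not overlap at all were seen in 2 rows with PJ34 higher (0.00918%) and 1 row with PJ34 lower (0.00459%), none of them a member. The group means were higher in PJ34 embryos for 6 of the 10 member rows and for 43.6% of all rows, and the median difference was 0.07 for the members and -0.02 for all rows. The members were chosen with this contrast known, so these counts describe them and support nothing. No row, member or not, passed an adjusted p of 0.1 in the comparison of the groups (limma with Benjamini-Hochberg adjustment, 0% of rows, lowest adjusted p = 0.112). At an unadjusted p below 0.05 it called 1282 rows (5.89%), 426 of them higher (1.96%) and 856 lower (3.93%) in PJ34 embryos, and a plain analysis of variance called 0 rows after adjustment. The median SE of a row's difference was 0.09 on the log2 scale.

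Sire families within a group were compared apart from the contrast by which the genes were chosen. The spread between families is part of the SD within groups that this contrast uses. The family tests are therefore not wholly independent of the choice. Tob1 averaged 9.22 ± 0.56 (SD, n = 4) in embryos of MTM11, 8.83 ± 0.42 (n = 4) in those of MTM13 and 9.71 ± 0.56 (n = 2) in those of MTM14. Tob2 had another order, with 8.80 ± 0.07 in MTM11, 8.57 ± 0.16 in MTM13 and 8.52 ± 0.04 in MTM14. The 3 families of PJ34 sires did not differ past the threshold for any member row (limma F test over the 3 families, adjusted p over all rows 0.999 for each of the 10 rows). Tob2 had the lowest unadjusted p of the members, 0.066, and Tob1 had 0.152. The test passed 2 rows of 21780 (0.00918%), neither of them a member, and 4.8% at an unadjusted p below 0.05, again with no member.

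Within the controls, sires B and D were compared in the same fit. Tob1 averaged 8.14 ± 0.26 (SD, n = 3) in embryos of B and 8.10 ± 0.75 (n = 3) in those of D, and Tob2 8.10 ± 0.26 and 8.33 ± 0.05. The D minus B difference of 0.23 for Tob2 (limma, unadjusted p = 0.078, adjusted p = 0.939) was the nearest of any member to the threshold. No row passed (0% called, limma, lowest adjusted p = 0.263), and 5.15% of rows but no member had an unadjusted p below 0.05. The sire means also bear on the contrast by which the genes were chosen and are given as a description. The 3 PJ34 sires were above all 3 control sires for 5 of the 10 member rows, beside 4.38% of all rows. These were Tob1 (8.83 to 9.71 against 8.10 to 8.38), Tob2 (8.52 to 8.80 against 8.10 to 8.33), Btg2 (6.67 to 6.99 against 6.11 to 6.55), Btg4 (11.83 to 11.94 against 11.43 to 11.70) and Cnot7, whose sire means met at 11.42. They were below all 3 control sires for the dimmer Cnot8 row (7.86 to 8.40 against 8.46 to 8.70), 1 of 10 member rows, beside 5.84% of all rows. For the tests between families, with 2 to 4 embryos in each, a p that misses the threshold does not show that the families were alike.

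Each PJ34 embryo was also set against the controls on its own, with the residual spread taken from the controls. The test called between 63 and 200 rows per PJ34 embryo, with a median of 123, and between 63 and 106 rows, median 93, for each control against the other 6 (0.397% of all combinations of row and control). None of the 100 combinations of member row and PJ34 embryo was called, where 0.581% of all combinations were. Since these values belong to the contrast by which the genes were chosen, the calls are a description and support nothing. They turned on the control D-3, which at 7.24 was the lowest embryo for Tob1. Without it 2 of the 100 combinations were called, both of them Tob1 (MTM11-1 and MTM14-1), beside 0.552% of all combinations.

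On the signal scale the members fell into a bright and a middle set. In controls the brighter Cnot8 row stood above 99.5% of rows, Btg4 above 98.3%, Cnot7 above 97.6% and Cnot6l above 97.1%. The dimmer Cnot8 row (84.9%), Tob2 (82.4%), Tob1 (82.0%) and Btg1 (78.7%) came next, then Zfp36l2 (64.2%) and Btg2 (53.9%). A percentile of log2 intensity depends on the affinity of the probes, so it places a row on the array and does not rank one gene's RNA against another's.

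Among embryos, Tob2 stood apart by its steadiness and Btg2 by its variation. The SD of Tob2 within groups was 0.17, where the median of the 1395 rows of like signal (mean log2 level 8 to 9) was 0.53 and 3.01% of them had a smaller SD. Tob1, in the same range of signal, had an SD of 0.53, the median value. The SD of Btg2 was 0.53 against a median of 0.18 for its range (6 to 7), above 88.2% of 5820 rows, and that of Btg1 was 0.59 against 0.38, above 72.2% of 2593 rows. Cnot7 was at 0.12 against 0.21, with 12.7% of 623 rows below it, while Cnot6l, in the same range of signal, was at 0.26, above 67.6% of them. These SDs enter the group comparison that was known when the genes were chosen, so they are given as a description.

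**Figure D4:**
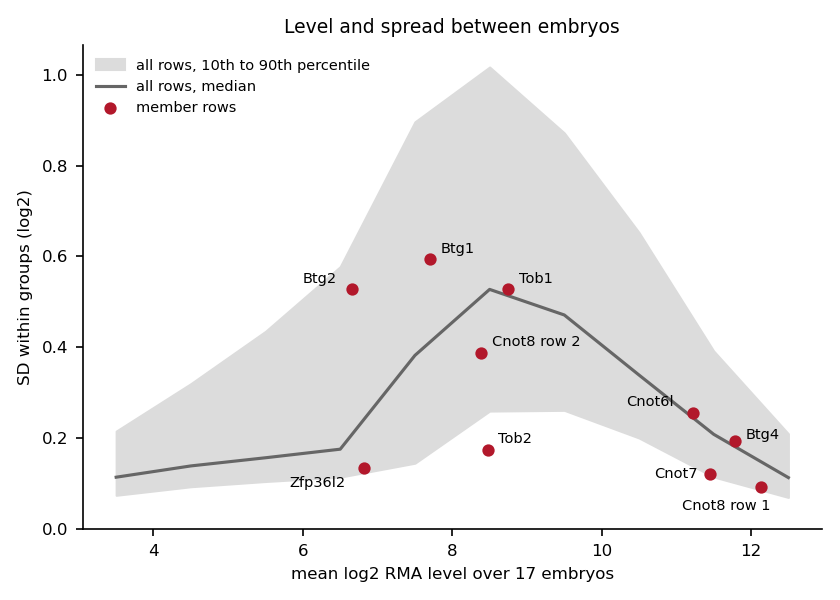
SD within groups (y axis, log2) against the mean log2 RMA level over 17 embryos (x axis) for the 10 member rows with 1 symbol, over the median (line) and the 10th to 90th percentile (band) of all rows in bins 1 log2 unit wide. Tob2 lies below the band at 0.17, Tob1 on the median line at 0.53, and Btg2 near the upper edge.

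Whether the genes varied together was asked over the 17 embryos after removing the group means, for the 36 pairs of 9 genes (the brighter row for Cnot8). Pearson's r ran from -0.38 to 0.66 with a median of 0.16, and 25 pairs were above 0. No pair passed the adjusted threshold (permutation test within groups, lowest adjusted p = 0.225), and 3 pairs had an unadjusted permutation p below 0.05. The closest pair was Btg2 with Cnot7, an adaptor and the subunit it binds (r = 0.66, permutation p = 0.0063, adjusted 0.225; rho = 0.67, permutation p = 0.0054, adjusted 0.193). Their r was 0.49 without the 2 embryos farthest from the median of Btg2, and 0.68 with sire means removed.

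Cnot6l took part in the other pairs. With Btg4 it gave r = 0.54 (permutation p = 0.0305, adjusted 0.366) and rho = 0.61 (permutation p = 0.0126, adjusted 0.228), and with Btg1 it gave r = 0.53 (permutation p = 0.0285, adjusted 0.366) and rho = 0.54 (permutation p = 0.0244, adjusted 0.293). Without the 2 farthest embryos both values of r were 0.47. Tob1 and Tob2 did not follow each other within groups, with r = 0.12 (permutation p = 0.638, adjusted 0.883), rho = 0.21 (permutation p = 0.440, adjusted 0.880) and r = 0.29 without the 2 farthest embryos. Leaving out each embryo in turn moved this r between -0.01 and 0.29, so 17 embryos do not fix its size.

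The genes closest in pattern to 4 of the members were found among 19926 other genes by the same group-centred r over 17 embryos, given without a test because each is the highest of many. Nearest to Tob1 were Stx12 (r = 0.85), a syntaxin of endosomes, Phip (0.81) and Pkm (0.79), the muscle-type pyruvate kinase. Nearest to Tob2 were Rce1 (0.81), a protease of prenylated proteins, Asb5 (0.77) and Hpd (0.76). Fundc1 (0.79), a mitophagy receptor, Impact (0.76) and Dnah11 (0.76) came nearest to Btg4, and Cox7b (0.82), Yipf6 (0.81) and Fbxo8 (0.79) to Cnot6l. The other members were left out of this search.

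Beyond the members, 76 of 82 further genes of RNA decay and storage were measured, by 81 rows. None passed the threshold in either direction (limma, lowest adjusted p = 0.814), an unadjusted p below 0.05 was found for 3 rows with higher and 2 with lower means in PJ34 embryos, and the median difference was 0.01, beside -0.02 over all rows. Their family tests passed no row either. The values named next did not pass and are the lowest p in each direction for each role.

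Among the other CCR4-NOT subunits, 7 of 10 rows had a higher mean in PJ34 embryos, beside 43.6% of all rows. Cnot11, a subunit of the module that Cnot10 helps form, was at 6.205 ± 0.36 in controls (SD, n = 7) and 6.76 ± 0.54 in PJ34 embryos (SD, n = 10), a difference of 0.56 ± 0.22 (SE), and Cnot4, a ubiquitin ligase, had -0.22 ± 0.23. Among 8 rows listed as other deadenylases, Noct, a circadian gene related to the CCR4 type in sequence, differed by 0.22 ± 0.08 and Angel1 by -0.15 ± 0.15. Whether the protein of each listed gene removes poly(A) tails was not tested. Among poly(A)-binding proteins and their partners the values were 0.18 ± 0.15 for the oocyte poly(A)-binding protein gene Pabpc1l and -0.13 ± 0.09 for Paip2b. The median differences of these roles were 0.09, 0.17 and -0.04.

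The relatives of Zfp36l2 pointed both ways. Zfp36, the founding member of the family, had 0.36 ± 0.21 (SE) and Zfp36l3 had -0.13 ± 0.06, and the 11 rows of proteins that bind RNA elements had a median of -0.11. In decapping, Lsm14a, a component of cytoplasmic RNA granules, had 0.20 ± 0.09 and the decapping enhancer Edc3 had -0.20 ± 0.07 with all 10 PJ34 embryos below the control mean, as for 2.54% of all rows. The exosome subunit Exosc5 had -0.47 ± 0.27 and the exonuclease Dis3l had 0.26 ± 0.18. Tnrc6b, a GW182 protein that recruits CCR4-NOT for microRNAs, had 0.16 ± 0.11 and Ago4 had -0.04 ± 0.06. Of the genes listed under maternal RNA storage, the kinase gene Mos had 0.42 ± 0.22 and Ybx2 had -0.09 ± 0.13.

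**Figure D5:**
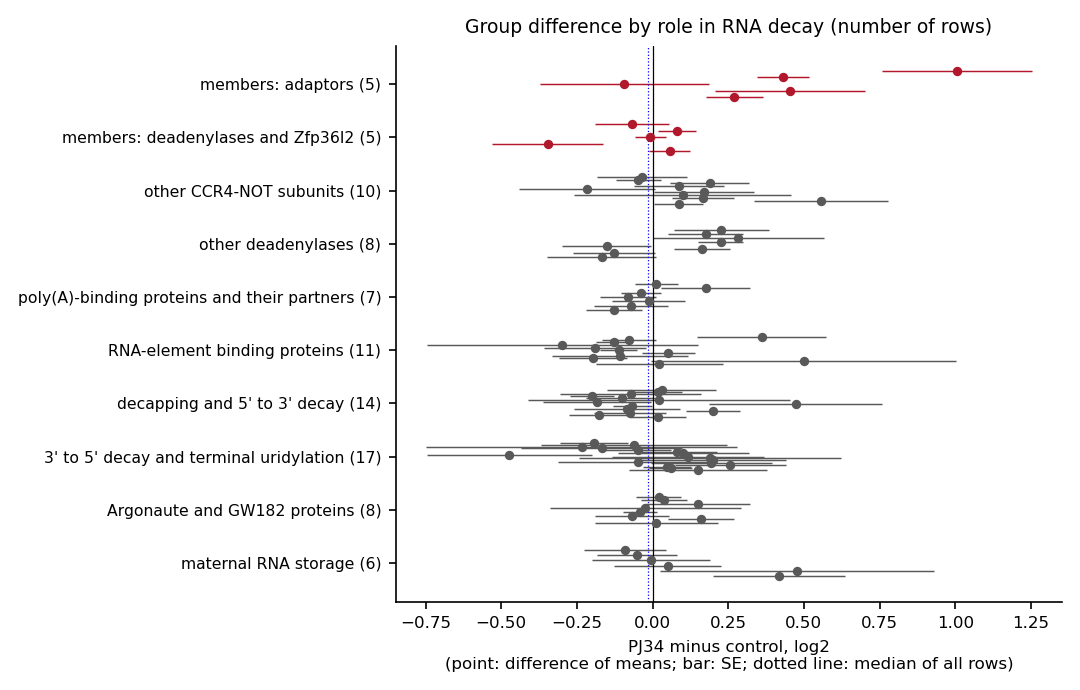
Difference of means, PJ34 minus control on the log2 scale (x axis), with its SE, for each row by role in RNA decay; red rows are the members and grey rows the other listed genes, and the dotted line is the median of all rows. Tob1 at 1.01 lies farthest from 0, and the other roles scatter on both sides of it.

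Marker genes of the stage and of other cells were read in the same embryos. The 10 rows of oocyte genes averaged 9.99 ± 0.20 (SD, n = 7) in controls and 9.91 ± 0.14 (SD, n = 10) in PJ34 embryos, and all 10 were above the median of all rows. Single oocyte rows went both ways. Zp1 (8.63 in controls and 8.12 in PJ34 embryos) and H1f8 (9.47 and 8.91) were lower in PJ34 embryos, and Bmp15 (11.70 and 11.99) was higher. Genes that are switched on at the 2-cell stage averaged 9.03 ± 0.29 and 9.15 ± 0.40, with 9 of 10 rows above the median row. Markers of the labelled stage were present in both groups. The rows of this 2-cell list went both ways. Zfp352 (10.14 in controls and 10.58 in PJ34 embryos) and the Zscan4 rows were higher in PJ34 embryos. Usp17lc (7.40 and 6.93) and Tcstv3 (10.60 and 10.40) were lower. The cumulus list lay between 5.26 and 5.41 in controls and 5.16 and 5.46 in PJ34 embryos, with 0 of 10 rows above the median row, and the sperm list (3 of 7 rows above it) between 5.57 and 5.95 and between 5.66 and 5.89.

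A list for oviduct and blood held 11 rows, without that of Ovgp1, which is annotated jointly with Wdr77. The mean of this list tended to move with Tob1 inside the groups, without passing the adjusted threshold. It lay between 5.93 and 6.26 in controls and between 5.94 and 6.47 in PJ34 embryos, a difference of 0.07 between the means. Its r with Tob1 was 0.60 (permutation p = 0.0138, adjusted over 45 relations 0.258) and rho was 0.57 (permutation p = 0.0198, adjusted 0.297). Without the 2 embryos in which the group-centred list mean lay farthest from its median, r was 0.41. The leukocyte marker Ptprc was at 4.76 in controls and 4.78 in PJ34 embryos. In the same order, Lyz2 was at 5.02 and 5.43, S100a8 at 4.53 and 4.61, and Krt19 at 5.21 and 5.09. The 2 Hbb rows were between 5.30 and 5.45, and all of these rows lay below the median of all rows. The 5 rows above it were those of Krt8, Epcam, Slc4a1 and 2 of Hba, and Epcam was the brightest at 7.71 and 8.01. Whether these rows read RNA of such cells or of the embryo itself was not tested. The part of such cells in the Tob1 values was not tested either. The other relations of this size were those of Btg1 with the 2-cell list (r = 0.60, permutation p = 0.0120, adjusted 0.258, and rho = 0.61, permutation p = 0.0080, adjusted 0.297) and of the brighter Cnot8 row with the sperm list (r = 0.61, permutation p = 0.0172, adjusted 0.258, and rho = 0.47, permutation p = 0.0634, adjusted 0.543). Without the 2 embryos farthest by the mean of the list in question, r was 0.47 and 0.48, and none of the 45 relations passed the adjusted threshold.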

How the data were processed

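The authors isolated RNA from single embryos, amplified it with the WT-Ovation One-Direct kit and hybridized it to Affymetrix Mouse Gene 1.0 ST arrays. They deposited log2 intensity values made by RMA (background correction, quantile normalization across arrays and a summary value per probe set) in Partek software. Neither software versions nor the build behind the probe sets is given in the sources used here. Quantile normalization gives every array nearly the same distribution, so values are relative to the whole array. Array medians lay between 6.12 and 6.23. Arrays have no read depth, and precision depends on how many embryos were measured and on the signal of a row. The median SD within groups was 0.53 for rows with a mean log2 level of 8 to 9 and 0.11 for 12 to 13.

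Of 28815 rows, 21780 carried 1 gene symbol (19935 genes), 1605 several and 5430 none that the annotation used here gives. Of the 21780, 21689 matched the gene table of GRCm38.p6, used for names. Samples were grouped by the labels. R 4.3.3 with limma 3.58.1 was used for the tests, run over all rows with 1 symbol, two-sided, with Benjamini-Hochberg adjustment and the study's threshold of 0.1. The 2 rows of several symbols were read from a fit over all rows. Correlations used 100000 resamples of embryos within groups (Python 3.11.15, numpy 2.4.6), two-sided, and figures matplotlib 3.10.9. The scripts were tested on simulated data. The p-values measure the spread between embryos, some of which share a sire. The members, gene lists and tests were chosen with earlier results of these data known. All members were named, and from each role of RNA decay the gene with the lowest p in each direction where fewer passed. Of the 82 listed genes, 6 without a row of 1 symbol were not analysed here. Alternatives were centred arrays, the sire as a random block, sire means, a plain analysis of variance, an intensity-dependent prior variance, all rows, bright rows, and leaving out each embryo or sire.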

Additional observations from a re-analysis of the deposited data

Results flagged for a closer look

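Of 80 groups of values checked for a sample far from the others of its group, 6 were flagged, and chance alone flags about 1 in 20. Both rows annotated to Gm7334 and Btg3 were lowest in embryo MTM11-1 within sire MTM11, at 5.55 and 5.53 where the next embryos had 7.40 and 7.39 (log2 level), and these rows are a single measurement. Cnot6l was highest among controls in D-2, at 11.77 against 11.35 in the next embryo. The brighter Cnot8 row was highest among controls in B-2, at 12.34 against 12.14. Edc3 was highest among controls in B-1, at 6.66 against 6.40, and Tnrc6b in A-2, at 8.15 against 7.71. The 4 control flags fell in 4 different embryos.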

How the results depend on the processing

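Over the 12 member rows, 310 differences were recomputed under the alternatives, and none moved by as much as the SD within groups. Leaving out 1 embryo cannot move a difference that far, so for those settings this outcome was fixed in advance. The first row of Gm7334 and Btg3 counts as not moved, though its difference of -0.57 became -0.24 without the control A-2 and -0.98 without sire D. Tob1 stayed between 0.85 (without the control D-3) and 1.23 (without sire MTM13), Tob2 between 0.33 (without sire MTM11) and 0.51 (without sire D), Btg4 between 0.21 and 0.33 and Btg2 between 0.35 and 0.58. The sign turned for rows near 0, in 3 alternatives for Btg1, 3 for Cnot6l, 7 for the brighter Cnot8 row and 1 for Zfp36l2. No member row was called by the group comparison under any alternative run, or by a family test with any embryo left out. The group comparison over all rows called 0 rows, 2 with the sire as a random block (sire correlation -0.04), 2 among rows above the median level, 2 without sire A, 1 without sire MTM14, and 0 to 2 with each embryo left out. The F test over PJ34 families called 2 rows, 1 with centred arrays, 4 over all rows of the table, 1 among bright rows, and 0 to 96 with each embryo left out, the highest being 51 without MTM14-1 and 96 without MTM14-2, which leave 1 embryo of that sire, assumed to vary like the others. The D minus B comparison called 0 rows and 0 to 3 with each embryo left out. The median number of rows called per PJ34 embryo was 123, 58.5 among bright rows, and 105 to 120.5 with each control left out, and calls of member rows ran from 0 to 2, the 2 being Tob1 without D-3. No pair of members passed under any alternative. Each group holds 3 sires, and the SE beside each difference counts embryos as independent.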
